A study of Mus musculus with 6 samples.

Results

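The clustered protocadherins are cell surface proteins of the cadherin superfamily, encoded in the mouse by the *Pcdha* (alpha), *Pcdhb* (beta) and *Pcdhg* (gamma) gene clusters. Members were taken as every annotated gene whose symbol starts with Pcdha, Pcdhb or Pcdhg and goes on with a number, with a letter and a number, or with c and a number. This gave 58 of the 53715 genes in the count table, namely 14 alpha, 22 beta and 22 gamma genes. The counts come from RNA-Seq of whole cerebellum, taken at 4 weeks of age from males of strain C57BL/6 (C57BL/6J for the parent lines in the methods), 3 of them controls and 3 with the *Slc39a8*-NSKO genotype. *Slc39a8* encodes a transporter of manganese, zinc and iron, and the comparison asks how its loss from neurons changes the transcripts of the cerebellum. In *Slc39a8*-NSKO (below NSKO) mice, the floxed *Slc39a8* gene was deleted by Cre under the promoter of *Synapsin I*, a neuronal gene, so glia and vessel cells should keep it and deletion can differ between brain regions. The control samples carry the label WT, and the study elsewhere calls its controls floxed mice in one place and wild-type mice in others, so their exact genotype is not settled here.

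Each alpha and gamma gene has a variable exon of its own that encodes the extracellular and transmembrane parts, spliced to constant exons that all genes of that cluster share and that encode the cytoplasmic tail. Beta genes have a variable exon alone. A single neuron uses a small set of alternate isoforms, picked by promoter choice with the architectural factor CTCF and cohesin, and neighbouring cells recognize each other through matching isoforms, which is known to keep branches of the same Purkinje cell apart. The last genes of the alpha and gamma clusters, *Pcdhac1*, *Pcdhac2*, *Pcdhgc3*, *Pcdhgc4* and *Pcdhgc5*, are the C-type isoforms, which are used more evenly across neurons than the alternate ones.

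In the GRCm38 annotation all members lie on the plus strand of chromosome 18, with the alpha cluster from 36930184 to 37187661, the beta cluster from 37264938 to 37524479 and the gamma cluster from 37661793 to 37841873. The annotation holds 2860 bases of exon that are common to the alpha genes, 2119 bases common to the gamma genes and 0 common to the beta genes. A read that falls in a constant exon therefore fits every gene of its cluster, and the estimated counts divide such reads between the genes. This division shows in the deposited values. All 22 gamma genes and 13 of the 14 alpha genes had a count that was not a whole number in every mouse, and the remaining alpha gene, *Pcdha4*, had one in 5 mice. Among the 22 beta genes only *Pcdhb12*, *Pcdhb21* and *Pcdhb22* had such counts in every mouse. *Pcdhb21* and *Pcdhb22* overlap each other by 455 bases, and *Pcdhb12* overlaps an antisense gene. Values of single alpha and gamma genes are thus estimates that depend on how reads were split, whereas the sum over a cluster does not depend on that split.

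The 2 entries named *Pcdha11* in the annotation are kept apart by their identifiers. ENSMUSG00000007440.10 starts at 37005203, where the RefSeq gene table of the same build places *Pcdha10*, and ENSMUSG00000102206.5 starts at 37010712. *Pcdhgb8* is annotated as a polymorphic pseudogene and was kept as a member.

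Levels are given as CPM, counts per 1000000 counts on genes after TMM scaling. The mice had between 14431260 (control 2) and 20844267 (control 1) counts on genes. *Slc39a8* had 99, 46 and 44 counts in the control mice and 38, 40 and 41 in the NSKO mice. The NSKO mice all lay below the controls, at -0.83 on the log2 scale (SE 0.237), but the adjusted p was 0.534 in edgeR's quasi-likelihood test. Of 16330 genes tested, 16 (0.0980%) passed an adjusted p of 0.05, and the median log2 fold change over all genes was 0.0011. The cerebellar identity of the tissue was clear from its markers, since the summed level of 5 granule cell genes was 3849 to 4252 CPM and that of 5 Purkinje cell genes 5706 to 6862 CPM over all mice. The dopamine receptor genes *Drd1* and *Drd2*, used here as markers of striatum, had at most 8 and 16 counts in a mouse. *Drd2* was higher in all NSKO mice, with 0.601, 0.719 and 0.850 CPM against 0.290, 0.556 and 0.257 CPM in controls (log2 fold change 0.996, SE 0.447, adjusted p = 0.908 in edgeR), and *Drd1* was also higher in all of them, with 0.400, 0.205 and 0.212 CPM against 0.193, 0.139 and 0.193 CPM, but did not pass the filter on low counts. *Slc17a7*, a transporter gene of cortical neurons and also of granule cells, had 569 to 610 CPM over all mice. In whole tissue, fewer cells of a type and less RNA per cell cannot be told apart.

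Clustered protocadherin transcripts were abundant in every mouse and did not pass the test for a difference between genotypes. Summed over all members they reached 1083, 1016 and 1033 CPM in the control mice and 1102, 1057 and 1076 CPM in the NSKO mice. The gamma cluster supplied 72.3% to 74.5% of these counts, the beta cluster 13.9% to 14.7% and the alpha cluster 11.6% to 13.5%. The 3 NSKO mice sat inside or just above the range of the control mice.

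The alpha sum was 145.9, 118.3 and 125.8 CPM in controls and 144.4, 137.0 and 139.7 CPM in NSKO mice, or 130.0 ± 14.3 against 140.4 ± 3.75 (mean ± SD, n = 3 each). The beta sum was 154.7, 140.8 and 151.5 CPM in controls and 158.7, 154.7 and 153.1 CPM in NSKO mice, or 149.0 ± 7.28 against 155.5 ± 2.87. The gamma sum was 782, 757 and 756 CPM in controls and 799, 766 and 784 CPM in NSKO mice, or 765 ± 14.96 against 783 ± 16.8. In each cluster the groups overlapped, and the log2 ratios of the means were 0.11 for alpha, 0.06 for beta and 0.03 for gamma. Single mice moved these ratios, alpha to 0.05 without control 2 and 0.20 without control 1, beta to 0.02 without control 2, and gamma to 0.02 without NSKO 1 and 0.05 without control 1, all still above 0. Control 2, the library with the fewest counts, had the lowest alpha and beta sums.

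**Figure D1:**
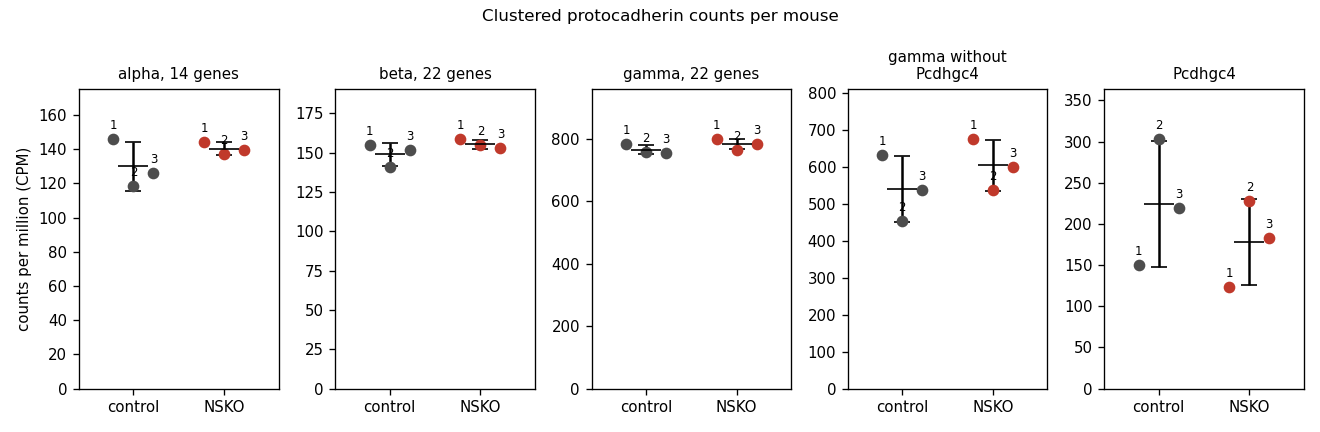
Level (CPM) of the alpha, beta and gamma clusters, of the gamma cluster without *Pcdhgc4*, and of *Pcdhgc4* alone, for each of 3 control (grey) and 3 NSKO (red) mice, numbered by replicate. Bars are mean ± SD and each axis starts at 0; the gamma sums lie between 756 and 799 CPM, while *Pcdhgc4* runs from 124 to 303 CPM.

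Of the 58 members, 57 passed the filter on low counts. *Pcdhb1* did not, with 5, 0 and 0 counts in controls and 0, 1 and 0 in NSKO mice, so that a difference in it was not detectable at this depth. None of the 57 passed an adjusted p of 0.05 in edgeR, where the lowest adjusted p was 0.860, and none did in DESeq2. At an unadjusted p of 0.05, edgeR gave 5 of 57 members (5.39% of all genes tested), 4 higher in NSKO mice (2.25% of all genes) and 1 lower (3.14% of all genes), and DESeq2 gave 3. The 4 higher ones were the alternate gamma genes *Pcdhga2*, *Pcdhga4*, *Pcdhga5* and *Pcdhga6*, and the lower one was *Pcdha2*. This count rested on single mice, since leaving out 1 mouse at a time moved it to between 1 (without control 2) and 12 (without control 1). The share of all genes is not given for those fits or for DESeq2.

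Most fold changes were small and positive. The log2 fold change of NSKO over control was above 0 in 42 of 57 members, or 73.7%, compared with 50.5% of all genes tested. It was above 0 in 8 of 14 alpha, 16 of 21 beta and 18 of 22 gamma genes. The median over members was 0.10, against 0.0011 over all genes, and the range ran from -0.48 for *Pcdha2* to 0.45 for *Pcdha11* (ENSMUSG00000102206.5). The median SE was 0.162, which is an error for single genes and not for the median over members. That median had no test. Without control 2, the mouse with the lowest value for 6 of 14 alpha, 10 of 21 beta and 13 of 22 gamma genes, the number above 0 fell to 33, and without NSKO 1, the mouse with the highest value for 10 of 22 gamma genes, it also fell to 33. Genes of a cluster share reads and are not independent of each other.

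**Figure D2:**
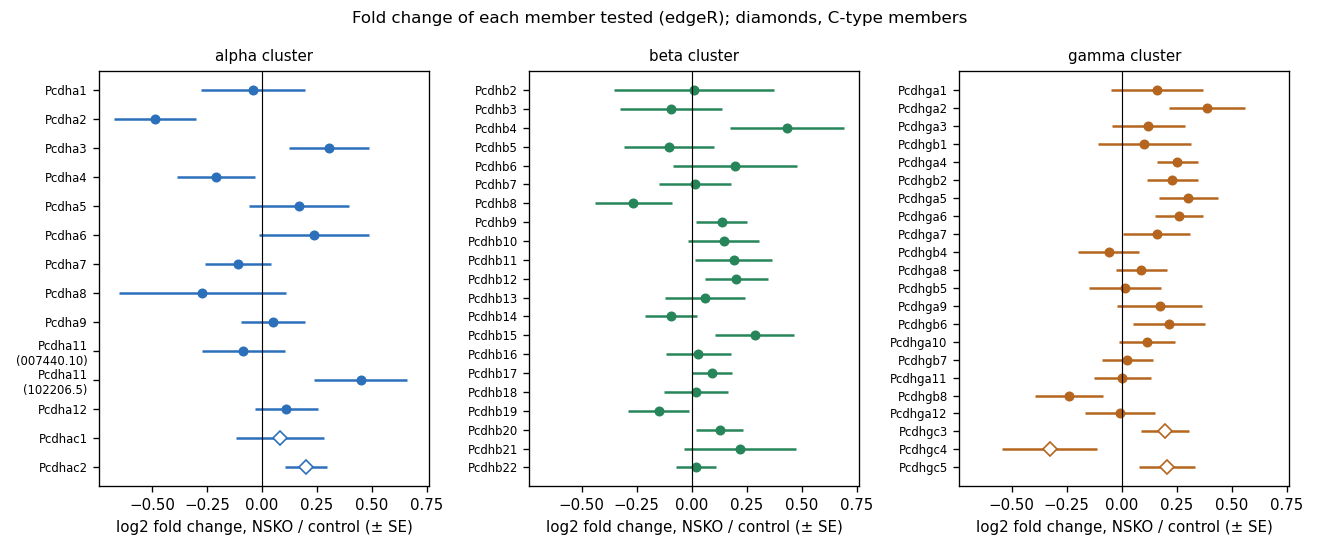
Log2 fold change of NSKO over control (x axis) with its SE for each of the 57 members tested, in gene order from top to bottom, with C-type genes as diamonds. Points right of 0 are higher in NSKO mice; 42 of 57 lie there, and most bars reach or cross 0.

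A member's 3 NSKO values all lay above the 3 control values in 2 of 57 members, *Pcdhb15* and *Pcdhga4* (5.08% of all genes tested), and all below them in 0 members (5.26% of all genes tested). For *Pcdhb15* the groups were barely apart, with a rounded value of 4.31 CPM in both the highest control and the lowest NSKO mouse.

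Among the C-type genes of the alpha cluster, *Pcdhac2* held the larger part of the counts. This isoform is known for its part in the spacing of serotonergic axons. Its level was 69.1, 51.3 and 53.0 CPM in controls and 69.4, 65.3 and 65.6 CPM in NSKO mice. Control 1 reached the NSKO level and the other control mice did not. This gave a log2 fold change of 0.20 (SE 0.0946), with an adjusted p = 0.916 in edgeR. Without control 1 it was 0.36 with an adjusted p = 0.0527 in edgeR, and without control 2 it was 0.12. *Pcdhac2* took 47.4%, 43.3% and 42.1% of the alpha counts in controls and 48.1%, 47.6% and 47.0% in NSKO mice. Per kilobase (kb) of annotated exon it had 10.6 CPM, which was 9.63 times the median of the alpha genes, and it was above every other alpha gene in each mouse.

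*Pcdhac1*, the other alpha C-type gene, was far lower. It had 9.08, 7.06 and 6.46 CPM in controls and 8.62, 10.1 and 5.48 CPM in NSKO mice, and the NSKO mice spanned the control range on both sides, with a log2 fold change of 0.08 (SE 0.201). Together, the C-type genes made up 53.6%, 49.3% and 47.3% of alpha counts in controls and 54.0%, 55.0% and 50.9% in NSKO mice. The means differed by 3.25 percentage points, by 1.85 without control 3 and by 5.02 without control 1, and the groups overlapped.

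The alternate alpha genes summed to 67.7, 59.9 and 66.4 CPM in controls and 66.4, 61.7 and 68.6 CPM in NSKO mice, so their total was nearly the same in both groups, at 64.7 ± 4.15 and 65.5 ± 3.52. Which of them supplied it varied more. *Pcdha2* had 7.5, 5.10 and 5.94 CPM in controls and 4.32, 5.30 and 3.72 CPM in NSKO mice. Its lowest control value lay below the highest NSKO value. It had the lowest log2 fold change of any member, at -0.48 (SE 0.186), with an adjusted p = 0.867 in edgeR. As a share of alpha counts *Pcdha2* had 5.14%, 4.31% and 4.72% in controls and 2.99%, 3.87% and 2.67% in NSKO mice, and on this scale the groups did not overlap. Of all 58 members, shares of the cluster were higher without overlap in 1 (*Pcdhga4*) and lower in 2 (*Pcdha2* and *Pcdhb8*). In CPM, 5.08% of all genes tested were higher and 5.26% lower without overlap.

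*Pcdha11* (ENSMUSG00000102206.5), with the highest log2 fold change of any member, had 3.39, 2.77 and 3.13 CPM in controls and 4.67, 3.13 and 4.99 CPM in NSKO mice. NSKO 1 and 3 were above all controls and NSKO 2 was within their range. The log2 fold change was 0.45 (SE 0.210), with an adjusted p = 0.916 in edgeR. *Pcdha9* and *Pcdha12*, were the alpha genes with the highest mean CPM after *Pcdhac2*. *Pcdha9* had 7.44, 6.64 and 9.59 CPM in controls and 7.84, 8.29 and 8.29 CPM in NSKO mice, a log2 fold change of 0.05 (SE 0.147). *Pcdha12* had 9.60, 7.69 and 9.72 CPM in controls and 9.29, 8.55 and 11.5 CPM in NSKO mice, a log2 fold change of 0.11 (SE 0.143). In both genes the groups overlapped. The lowest alpha gene per kb was *Pcdha8*, at 0.208 CPM per kb. Ordered by CPM per kb, only the steps from *Pcdhac2* to *Pcdha12* and from *Pcdha1* to *Pcdha8* were wider than the ranges over mice, out of 13 steps.

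Beta genes carry no constant exon, and most of their counts were whole numbers, so their values rest least on the splitting of reads. No beta gene stood as far above the rest as the highest C-type gene did in the alpha and gamma clusters. The highest gene per kb, *Pcdhb17* at 3.88 CPM per kb, was 2.70 times the median of the 22 beta genes. That ratio was 9.63 in the alpha cluster (*Pcdhac2*) and 13.1 in the gamma cluster (*Pcdhgc3*). At the low end the beta levels were not more even, with *Pcdhb1* at 0.0189 CPM per kb. *Pcdhb17* had 18.7, 16.4 and 17.3 CPM in controls and 20.2, 18.3 and 17.6 CPM in NSKO mice, a log2 fold change of 0.09 (SE 0.0927). *Pcdhb22* had 15.7, 15.1 and 16.8 CPM in controls and 16.4, 15.5 and 16.4 CPM in NSKO mice, a log2 fold change of 0.02 (SE 0.091). *Pcdhb20* had 12.6, 13.4 and 13.2 CPM in controls and 12.5, 14.8 and 15.5 CPM in NSKO mice, a log2 fold change of 0.13 (SE 0.107). These 3 genes had the highest mean CPM of the cluster, and in each the groups overlapped.

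The beta genes with the lowest unadjusted p were *Pcdhb4*, *Pcdhb15* and *Pcdhb8*, none of which reached 0.05. *Pcdhb4* had 2.85, 2.02 and 3.21 CPM in controls and 2.55, 4.93 and 3.51 CPM in NSKO mice, with NSKO 2 high and NSKO 1 inside the control range. Its log2 fold change was 0.43 (SE 0.259), the highest of the cluster, with an unadjusted p = 0.117 in edgeR's quasi-likelihood test. *Pcdhb15* had 4.30, 4.31 and 3.15 CPM in controls and 4.76, 4.31 and 5.31 CPM in NSKO mice, a log2 fold change of 0.29 (SE 0.180). *Pcdhb8* had 5.36, 3.96 and 4.88 CPM in controls and 4.11, 3.65 and 4.14 CPM in NSKO mice, a log2 fold change of -0.27 (SE 0.173). As a share of beta counts, *Pcdhb8* was 3.46%, 2.82% and 3.22% in controls and 2.59%, 2.36% and 2.71% in NSKO mice, which did not overlap. In the order of the beta genes by CPM per kb, 2 of 21 steps were wider than the ranges over mice, those from *Pcdhb9* to *Pcdhb22* and from *Pcdhb2* to *Pcdhb1*.

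**Figure D3:**
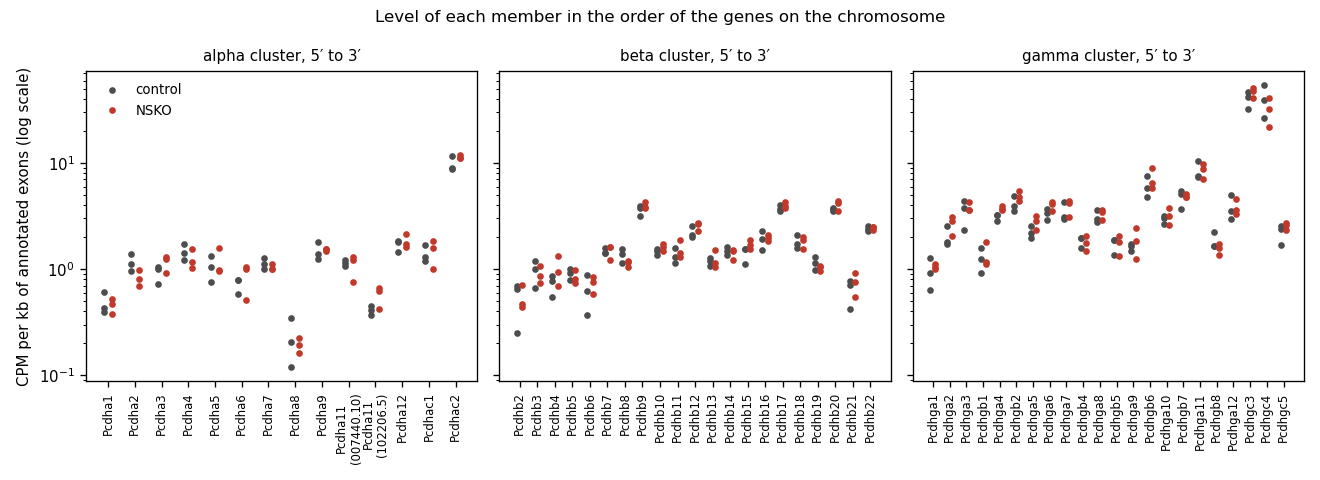
CPM per kb of annotated exon (log scale) for each member except *Pcdhb1*, in gene order along each cluster, with 1 point per control (grey) and NSKO (red) mouse. *Pcdhac2*, *Pcdhgc3* and *Pcdhgc4* stand above the other genes of their clusters, and grey and red points overlap in nearly all genes.

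The gamma cluster was dominated by *Pcdhgc3* and *Pcdhgc4*, at 43.4 and 35.9 CPM per kb. The next gamma gene, *Pcdhga11*, had 8.49 CPM per kb, and the gap between *Pcdhgc4* and *Pcdhga11* was the only one of 21 steps in the gamma order that was wider than the ranges over mice. *Pcdhgc3*, known to promote dendrite branching in cortical neurons, had 258, 179 and 229 CPM in controls and 281, 224 and 261 CPM in NSKO mice. Control 2 was low, and the groups overlapped. *Pcdhgc3* had a log2 fold change of 0.20 (SE 0.109), with an adjusted p = 0.969 in edgeR.

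*Pcdhgc4*, the isoform known to be needed for the survival of many neurons, had a lower mean in NSKO mice and varied widely between mice of the same group. It had 150.1, 303 and 219 CPM in controls and 124, 228 and 182.5 CPM in NSKO mice, or 224 ± 76.6 against 178 ± 52.4 (mean ± SD, n = 3 each). The highest mouse had 2.45 times the level of the lowest, while for the sum of the gamma cluster this ratio was 1.06. The log2 fold change was -0.33 (SE 0.216), with an adjusted p = 0.994 in edgeR. Leaving out control 2 brought it to -0.05, leaving out NSKO 1 to -0.12, leaving out control 1 to -0.55 and leaving out NSKO 2 to -0.55, and in none of these fits did it pass. It did pass in edgeR with no filter on low counts (adjusted p = 3.535e-05, log2 fold change -0.32). The fold change was nearly the same there, but the SE was 0.0601 in place of 0.216. In DESeq2 the log2 fold change was -0.33 (SE 0.373), with an unadjusted p = 0.378.

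The spread of *Pcdhgc4* was unusual for a gene with so many counts (2468 to 4441 per mouse). Its coefficient of variation (CV) was 34.2% in controls and 29.4% in NSKO mice. Over the 2292 tested genes with a mean of at least 100 CPM, the median CV was 4.17% in controls and 4.19% in NSKO mice, and *Pcdhgc4* was the only gene whose CV was that high in both groups. In the same mice the gamma sum had a CV of 1.95% and 2.15%.

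The other gamma genes were high in the mice where *Pcdhgc4* was low. Without it, the gamma sum was 632, 454 and 537 CPM in controls and 676, 538 and 601 CPM in NSKO mice. In each group the mouse with the least *Pcdhgc4* (control 1 and NSKO 1) had the most of the other 21 genes, and the mouse with the most *Pcdhgc4* (control 2 and NSKO 2) had the least of them. Of these 21 genes, 15 were highest in control 1 or NSKO 1 and 13 were lowest in control 2. Measured as usage, *Pcdhgc4* took 19.2%, 40.0% and 28.9% of gamma counts in controls and 15.5%, 29.8% and 23.3% in NSKO mice. Shares of a sum move against each other by construction. The same opposite order of the mice was present in CPM, but this is no separate support. The gamma sum in CPM was nearly the same in all mice, so a higher *Pcdhgc4* leaves less for the other genes there too.

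In the annotation, *Pcdhgc4* has a coding transcript (Pcdhgc4-203) of 2272 bases, of which 2119, or 93.3%, lie in the constant exons. The other 153 are shared with no other member. The full transcript of *Pcdhgc4* has 42.2% of its 5024 bases in the constant exons, and that of *Pcdhgc3* has 45.2% of 4687. *Pcdhgc5* also has short coding transcripts, one of 593 bases with 75.2% shared. The methods state that cDNA was primed with oligo-dT, and the constant exons lie at the 3′ end. The total counts also differed between these mice, at 20844267, 14431260 and 15555933 in controls and 20030339, 19441352 and 18779182 in NSKO mice, so that control 2 had the fewest counts and the most *Pcdhgc4*. The part of the short transcript, of the reads in the constant exons and of depth in the *Pcdhgc4* values was not tested. The values per gene hold no separate count for the variable exon.

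**Figure D4:**
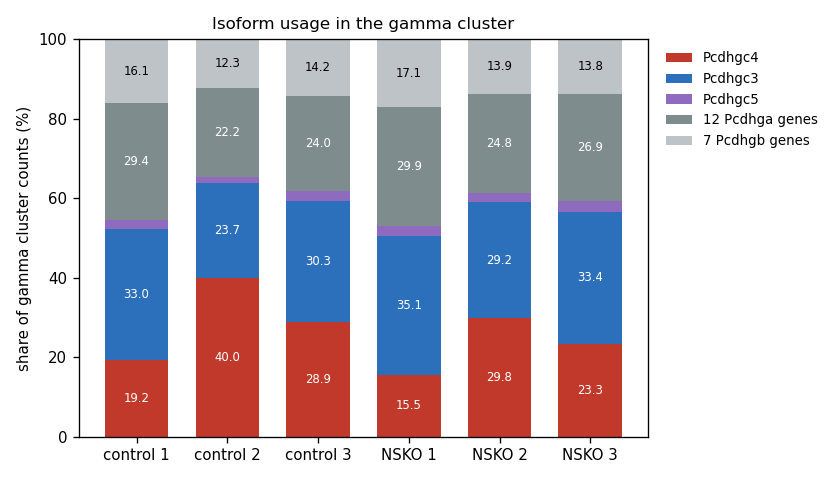
Share of the gamma cluster's counts (y axis, %) held by *Pcdhgc4*, *Pcdhgc3*, *Pcdhgc5*, the 12 *Pcdhga* genes and the 7 *Pcdhgb* genes in each of the 6 mice. *Pcdhgc4* ranges from 15.5% in NSKO 1 to 40.0% in control 2, and *Pcdhgc3* from 23.7% in control 2 to 35.1% in NSKO 1.

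The third gamma C-type gene, *Pcdhgc5*, whose protein is known to bind GABA-A receptors, was less abundant. It had 18.3, 12.9 and 19.3 CPM in controls and 20.0, 17.8 and 20.9 CPM in NSKO mice, a log2 fold change of 0.21 (SE 0.128), and the groups overlapped. All C-type genes together took 54.5%, 65.4% and 61.8% of gamma counts in controls and 53.1%, 61.3% and 59.3% in NSKO mice, a difference of -2.69 percentage points. It came to -0.27 points without control 2, -0.28 without NSKO 1, -5.72 without control 1 and -4.40 without NSKO 2. With *Pcdhgc4* left out of numerator and denominator, the C-type share was 43.7%, 42.4% and 46.3% in controls and 44.5%, 44.9% and 46.9% in NSKO mice. The difference then became 1.34 percentage points, and the spread between mice was smaller, with a CV of 4.49% in controls and 2.87% in NSKO mice in place of 9.16% and 7.41%.

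The alternate gamma genes summed to 356, 262 and 289 CPM in controls and 375, 296 and 319 CPM in NSKO mice, and the groups overlapped. *Pcdhga4* was the one with the lowest unadjusted p of all members. It had 15.3, 13.5 and 15.4 CPM in controls and 17.3, 17.0 and 18.5 CPM in NSKO mice, or 14.8 ± 1.08 against 17.6 ± 0.812. All NSKO mice lay above all controls, also as a share of gamma counts, at 1.96%, 1.79% and 2.04% against 2.16%, 2.23% and 2.37%. The log2 fold change was 0.25 (SE 0.0942), with an unadjusted p = 0.0185 and an adjusted p = 0.860 in edgeR. Of the exon bases of *Pcdhga4*, 66.8% are shared with other members, the largest share in the cluster.

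*Pcdhga6* had 17.4, 13.7 and 15.9 CPM in controls and 19.6, 16.6 and 20.4 CPM in NSKO mice, where NSKO 2 fell inside the control range. Its log2 fold change was 0.26 (SE 0.110), with an adjusted p = 0.908 in edgeR. *Pcdhga2* had 11.9, 8.37 and 8.05 CPM in controls and 14.5, 9.71 and 13.2 CPM in NSKO mice, with control 1 above NSKO 2. It had the highest log2 fold change of the gamma genes, 0.39 (SE 0.172), with an adjusted p = 0.908 in edgeR. *Pcdhga5* had 12, 9.18 and 10.2 CPM in controls and 14.7, 13.2 and 10.98 CPM in NSKO mice, a log2 fold change of 0.30 (SE 0.135), and here too control 1 reached into the NSKO range. *Pcdhga11*, the alternate gene with the highest mean CPM, had 49.5, 35.8 and 35.5 CPM in controls and 46.1, 33.7 and 41.8 CPM in NSKO mice. Its log2 fold change was 0.00 (SE 0.129).

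Taking each alternate gene as a share of the alternate genes of its cluster removes the C-type genes, and with them *Pcdhgc4*. On this scale *Pcdhga4* no longer separated the groups, with 4.31%, 5.17% and 5.34% in controls and 4.6%, 5.75% and 5.81% in NSKO mice. *Pcdha2* also overlapped, with 11.1%, 8.51% and 8.95% in controls and 6.51%, 8.59% and 5.43% in NSKO mice. *Pcdha11* (ENSMUSG00000102206.5) was now higher in all NSKO mice, with 5.0%, 4.63% and 4.71% against 7.04%, 5.08% and 7.28%. So was *Pcdhgb2*, an alternate gamma gene, with 6.69%, 6.62% and 6.70% in controls and 7.13%, 7.24% and 7.29% in NSKO mice. Which genes separated the groups thus changed with the denominator of the share.

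Other annotated genes lie within the clusters and could take reads from members. Those on the same strand summed to at most 0.609% of a cluster's counts in any mouse. Those on the opposite strand summed to at most 2.01%, most of it from *BC037039*, an antisense gene in the gamma cluster with 112 to 238 counts per mouse.

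The 12 non-clustered protocadherins, single genes outside these clusters, gave 0 past the adjusted p in edgeR. They also gave 0 at an unadjusted p of 0.05 (5.39% of all genes tested), with a median log2 fold change of 0.04. The lowest unadjusted p was that of *Pcdh11x*, an X-linked protocadherin, with 3.33, 3.34 and 2.38 CPM in controls and 2.30, 2.36 and 1.81 CPM in NSKO mice. All NSKO mice lay below all controls (5.26% of all genes tested), but the nearest values were 2.36 and 2.38 CPM. The log2 fold change of *Pcdh11x* was -0.48 (SE 0.228), with an adjusted p = 0.916 in edgeR. *Pcdh18*, next in that order, had 1.45, 1.6 and 1.41 CPM in controls and 1.80, 2.05 and 1.70 CPM in NSKO mice. Here all NSKO mice lay above all controls (5.08% of all genes tested). The log2 fold change of *Pcdh18* was 0.32, with an adjusted p = 0.994 in edgeR.

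Of 17 genes for promoter choice and chromatin at the clusters, 0 passed the adjusted p in edgeR. An unadjusted p under 0.05 was found for 1 of the 17 (5.39% of all genes tested). Their median log2 fold change was -0.02. CTCF, which binds the promoters and enhancers of the clusters, had 93.1, 93.7 and 92.5 CPM in controls and 97.2, 82.9 and 88.9 CPM in NSKO mice for its gene *Ctcf*. The cohesin subunit gene *Rad21* had 177, 181 and 174 CPM in controls and 178, 183 and 172 CPM in NSKO mice. The DNA methyltransferase gene *Dnmt3b* had 1.40, 2.57 and 2.06 CPM in controls and 1.6, 2.0 and 1.97 CPM in NSKO mice. All 3 overlapped between groups. *Wiz*, whose zinc finger protein acts with CTCF and cohesin at chromatin loops, was the gene under the unadjusted threshold, with 82.9, 71.6 and 82.9 CPM in controls and 87.0, 88.0 and 90.4 CPM in NSKO mice. The groups did not overlap, as in 5.08% of all genes tested with NSKO higher. The log2 fold change of *Wiz* was 0.16 (SE 0.065), with an adjusted p = 0.885 in edgeR. *Atf7ip*, a partner of the histone methyltransferase SETDB1, had a log2 fold change of -0.10.

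Of 17 cytoplasmic and membrane partners, among them kinases and the subunits of the WAVE actin regulator, 0 passed the adjusted p in edgeR. An unadjusted p under 0.05 was found for 0 of them (5.39% of all genes tested), and their median log2 fold change was 0.03. The lowest unadjusted p values were those of *Brk1*, a WAVE subunit gene, at a log2 fold change of 0.11, and *Prkca*, a protein kinase C gene, at 0.10.

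Summed levels of the markers of some cell types also differed between the groups. These sums had no test, and no single marker gene passed the adjusted threshold. The 5 Bergmann glia and astrocyte genes summed to 1802 to 2100 CPM in controls and 2133 to 2205 CPM in NSKO mice, and the 5 microglia genes to 66.1 to 74.6 and 77.5 to 81.3 CPM, both without overlap. The 5 choroid plexus genes summed to 765 to 1104 CPM in controls and 896 to 1547 CPM in NSKO mice, which overlapped. In edgeR, 3 of the 5 had an unadjusted p under 0.05, all higher (2.25% of all genes tested). The 5 granule cell, 5 Purkinje cell (5706 to 6649 against 6315 to 6862 CPM), 5 oligodendrocyte (7948 to 9080 against 7395 to 8926 CPM) and 5 endothelial genes (93.2 to 111 against 94.6 to 107 CPM) overlapped. The part of these cell types in the clustered protocadherin values was not tested.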

How the data were processed

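RNA-Seq libraries of cerebellum from 3 control and 3 *Slc39a8*-NSKO mice were used. The deposited values are expected counts per gene, for which the authors' processing notes list STAR, RSEM, DESeq2, FastQC and mm10, and the values are not scaled for library size or for gene length. All sample columns were mapped. The 92 spike-in entries (at most 5 counts in a mouse) were left out. Names, exons and positions came from GENCODE M21 (GRCm38), which held 53620 of 53715 genes. Counts were rounded and tested in R 4.3.3 with edgeR 4.0.16 (quasi-likelihood test, TMM, filterByExpr, Benjamini-Hochberg adjustment over all genes tested, checked on simulated data). CPM used TMM library sizes. Sums and shares used unrounded counts, and no test of them is given. In 1 alternative run the rounded alpha and gamma sums entered the edgeR fit as single genes. DESeq2 1.42.0 and other settings were alternatives. p-values measure the spread between these samples, taken as separate mice.

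Named were the C-type genes, in each cluster the 3 members with the highest mean CPM and the 3 with the lowest unadjusted p, the extreme fold changes, and for each pathway list the 2 genes with the lowest unadjusted p. *Pcdhga5*, *Pcdhgb2*, *Ctcf*, *Rad21* and *Dnmt3b* were added after their values were seen. The members and lists were chosen with earlier results of these data known. All pairs of samples differed beyond counting noise (chi-square per degree of freedom 3.79 to 8.89). The summed level of 1 further marker list is not reported here.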

Additional observations from a re-analysis of the deposited data

How the results depend on the processing

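At most 11 members changed the sign of their fold change under any alternative run (without control 2 and without NSKO 1). Genes past the adjusted p numbered 16, and 37 with DESeq2, 178 without the filter and 9 to 38 when 1 mouse was left out (9 without NSKO 2, 38 without control 1). Members past it numbered 0, 0 also when any 1 mouse was left out, and 1 (*Pcdhgc4*) without the filter. Members with an unadjusted p under 0.05 numbered 5, and 3 with DESeq2 and 12 without the filter. They numbered 1 to 12 when 1 mouse was left out (12 without control 1, 1 without control 2, 3 without control 3, 3 without NSKO 1, 10 without NSKO 2, 2 without NSKO 3). With alpha and gamma each collapsed to 1 sum, 0 of 21 beta genes were under it, as in the main fit. Members whose groups did not overlap numbered 2, and 3 to 12 with 1 mouse left out (12 without control 1, 8 without control 2, 6 without NSKO 1, 12 without NSKO 2, 7 without NSKO 3), when fewer values have to separate. The gamma log2 ratio was 0.033, and 0.1604 without *Pcdhgc4*, an alternative chosen after seeing the data. With 1 mouse left out, genes under an unadjusted p of 0.05 numbered 0 to 1 for the non-clustered protocadherins, 0 to 2 for promoter choice and chromatin, and 0 to 1 for the partners. The shares of all genes under an unadjusted p of 0.05, or without overlap, are not given for these settings. The counts of members under them are therefore not read as a trait of the members. The cause of these changes was not tested.

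The rule used for pairing asked for a correlation above 0.1 in every pair of same-numbered samples. The replicate numbers did not pair the mice by this rule, since these correlations were 0.142, 0.116 and 0.010. With a replicate block in edgeR, 41 genes passed the adjusted p, 1 of them a member (*Pcdhgc4*, log2 fold change -0.32, adjusted p = 0.024), 12 members and 1 non-clustered protocadherin had an unadjusted p under 0.05. The share of all genes under that unadjusted p is not given for the block either. *Pcdhgc4* was lowest in mouse 1 and highest in mouse 2 of both groups. Control 3 did not correlate best with its own number.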
